A study of Mus musculus with 8 samples.

Results

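Efnb3, Sbk2 and Lingo3 were among the genes with the largest decrease in hearts of Lrpprc knockout mice, and they are described here with the members of their families that were not picked for their values, Efnb1, Efnb2, Sbk1 and Sbk3. The 7 genes were taken from 50599 gene records, of which 19959 had an adjusted p, and all 7 members were among those 19959. The first 3 genes were chosen because their counts were lower in the knockout, so their values in that contrast are given as a description with no test. The other 4 were chosen by family, and for them the result of the fit across all genes is given. Of these 4, 3 fell (Efnb1, Sbk1 and Sbk3) and 0 rose in that fit, by DESeq2 at an adjusted p under 0.05, where 15.5% of all genes tested were called lower and 18.2% higher, 33.7% in all.

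The RNA libraries, 4 wildtype and 4 Lrpprc knockout, came from hearts of 12-week-old male mice on a C57BL/6N background. The controls carried Lrpprc with loxP sites on both alleles (Lrpprc loxP/loxP), and the knockout mice carried the same alleles together with Cre (Lrpprc loxP/loxP, Cre+), a knockout of heart and skeletal muscle. The promoter that drives Cre is not given in the sources used here, and Lrpprc itself encodes a mitochondrial RNA-binding protein. Libraries are named by their genotype and replicate number, and the titles do not say whether a number marks a shared litter or day.

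The targeted gene was lower in every library labelled knockout. Normalised counts of Lrpprc were 3607, 3946, 3424 and 3682 in the wildtype and 597, 504.3, 605 and 601 in the knockout, a change of -2.67 ± 0.1 on the log2 scale (SE, adjusted p = 3.77e-153 by DESeq2). Total expected counts ranged from 35218541 to 47743376 per library with group means no further apart than chance assignments often put them (exact permutation test, two-sided, p = 0.6). The 2 mitochondrial rRNA records took 44.0 to 46.9% of the counts in the wildtype and 65.6 to 67.8% in the knockout, so that counts from all other genes were 19351547 to 25371510 and 12828816 to 15487013. Knockout replicates differed from each other more than wildtype replicates did, with a chi-square per degree of freedom of 13.5 to 48.3 between pairs against 4.40 to 9.3, and each of the 3 largest values, 33.4 or more, belonged to a pair with knockout replicate 3. RNA came from heart tissue, so fewer cells of a type and less RNA per cell cannot be told apart in any of the values below. The sources used here do not say whether atria and ventricles were both taken in full.

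Ephrin-B proteins are membrane-spanning ligands that bind Eph receptor tyrosine kinases on a neighbouring cell, and signals pass into both cells. They are best known for guiding axons, for keeping cell populations apart and for shaping arteries and veins, and their short intracellular tail ends in a motif that binds PDZ-domain scaffolds. The SBK proteins are serine/threonine kinases named for an SH3-binding domain, and their substrates are little studied. LINGO proteins are membrane proteins with leucine-rich repeats and an immunoglobulin-like domain, and the best known of them, Lingo1, is a partner of the Nogo receptor in the nervous system.

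The ephrin-B genes share 23 of the last 30 bases of the coding region. The last 30 coding bases of each, stop codon included, are printed 5′ to 3′ from the GENCODE M21 transcripts to show how close the genes are at the PDZ-binding end, with capitals at the 23 positions that are the same in all 3 genes. They lie at chrX:99147498-99147527 on the plus strand (Efnb1), chr8:8620588-8620617 on the minus strand (Efnb2) and chr11:69555860-69555889 on the minus strand (Efnb3), all in the GRCm38 build and in the last exon.
Efnb1: AGcCCggCgAACATcTAcTACAAGGTtTGA
Efnb2: AGtCCtgCcAACATtTAcTACAAGGTcTGA
Efnb3: AGcCCtcCgAACATcTAtTACAAGGTaTGA
Over the whole coding region, of 1038, 1011 and 1023 bases, identity between pairs was 63.6 to 66.2%.

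The SBK genes were compared in the same way. The 60-base coding window with the most bases shared by all 3 is printed, because Sbk2 and Sbk3 differed from Sbk1 in their response, and capitals mark the 37 shared positions. The windows lie at chr7:126292096-126292155 on the plus strand (Sbk1), chr7:4957380-4957439 on the minus strand (Sbk2) and chr7:4967699-4967758 on the minus strand (Sbk3).
Sbk1: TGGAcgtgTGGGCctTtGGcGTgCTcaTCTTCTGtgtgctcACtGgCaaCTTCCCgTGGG
Sbk2: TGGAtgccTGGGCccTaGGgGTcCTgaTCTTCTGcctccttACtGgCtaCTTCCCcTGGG
Sbk3: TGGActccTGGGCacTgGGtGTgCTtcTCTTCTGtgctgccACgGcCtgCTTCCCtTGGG
Coding regions of 1254, 1089 and 1086 bases were 58.6 to 61.2% identical between pairs, and Sbk2 was no closer to Sbk3 (60%) than to Sbk1 (61.2%). Of all stretches of 50 bases in the annotated transcripts of the 7 members, 0 occurred in a transcript of another gene, so an exact match of that length would place a read in 1 gene only.

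Upstream bases are shown for the members with the largest decreases that the RefSeq promoter table for GRCm38.p6 holds, to show the sequence before each start. Of the 7 members, 5 had an entry, and Efnb3 and Sbk1 did not. The 250 bases before the start are printed 5′ to 3′ on the strand of the gene, from chr7:4964407-4964656 for Sbk2, chr7:4970962-4971211 for Sbk3 and chr10:80844040-80844289 for Lingo3, all on the minus strand. Capitals mark matches to any of 8 searched motifs.
Sbk2: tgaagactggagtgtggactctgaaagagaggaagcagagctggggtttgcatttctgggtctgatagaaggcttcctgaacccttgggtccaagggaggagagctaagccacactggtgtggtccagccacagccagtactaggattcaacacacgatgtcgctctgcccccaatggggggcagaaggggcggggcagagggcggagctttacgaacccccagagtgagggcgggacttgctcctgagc
Sbk3: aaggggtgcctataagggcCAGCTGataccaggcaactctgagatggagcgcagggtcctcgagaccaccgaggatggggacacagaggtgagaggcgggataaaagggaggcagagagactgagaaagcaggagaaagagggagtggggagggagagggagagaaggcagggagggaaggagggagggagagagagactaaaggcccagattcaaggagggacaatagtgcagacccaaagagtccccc
Lingo3: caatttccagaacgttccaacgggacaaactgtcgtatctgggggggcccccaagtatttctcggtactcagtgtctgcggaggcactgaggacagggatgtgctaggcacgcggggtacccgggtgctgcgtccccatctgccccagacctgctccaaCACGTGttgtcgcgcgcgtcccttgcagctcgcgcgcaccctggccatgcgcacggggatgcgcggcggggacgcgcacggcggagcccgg
The motifs, searched on both strands, were a GATA site (AGATAA), an E-box (CAGCTG), a MEF2 site (by name), an ERR half-site (CAAGGTCA), an amino acid response element core (TGATGNAA), a TATA box (TATAAA), a hypoxia response core (ACGTG) and a T-box half-site (AGGTGT). None of them was found before the start of Sbk2 or Efnb1. Upstream of Sbk3 there was an E-box at -231, a motif found before 13% of the 32851 starts in the table. Upstream of Lingo3 the hypoxia core matched on both strands, at -91 and -90, as 1 palindrome (CACGTG). The core ACGTG, on either strand, was found before 16.6% of starts, and the share with the whole palindrome was not counted. For the E-box only the form CAGCTG was searched. The table holds another start of Lingo3, at 80843798, with none of the 8 motifs and 74.0% GC in the 250 bases before it. Upstream of Efnb2 a TATA box matched on the reverse strand at -30, against 12.4% of starts. The shares were 9.99% for the GATA site, 3.2% for the MEF2 site, 1.33% for the ERR half-site, 3.45% for the amino acid response core and 11.8% for the T-box half-site. The GC content before the start was 58.8% for Sbk2, 58.4% for Sbk3 and 66.8% for Lingo3 against a median of 52.4% over all starts. The window of Sbk3 overlaps the first exon of its other annotated transcript, which begins further upstream.

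Efnb3 was the ephrin-B gene with the highest level in wildtype hearts and the lowest in the knockout. Efnb3 (ENSMUSG00000003934.5) encodes ephrin-B3, known from the midline of the nervous system, and is on the minus strand of chromosome 11, from 69554092 to 69560205. Its normalised counts, which are DESeq2 counts scaled for depth and transcript length, were 812, 971, 718 and 837 in the wildtype and 37.9, 20.8, 100.3 and 32.0 in the knockout, in the order of replicates 1 to 4. The groups did not overlap, and the lowest wildtype library was 7.16 times the highest knockout library, which was replicate 3. The means were 834.5 ± 104 and 47.8 ± 35.7 (SD, n = 4 each), and the log2 fold change was -4.13 ± 0.351 (SE). Without knockout replicate 3 it was -4.78.

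Efnb1 fell by a smaller amount and Efnb2 did not pass the threshold. Efnb1 (ENSMUSG00000031217.8, chromosome X from 99136130 to 99148991) encodes ephrin-B1, a ligand with roles in skeletal and neural crest development. Its normalised counts were 377, 345, 355 and 361.5 in the wildtype and 267, 180, 243 and 267 in the knockout, with no overlap. The log2 fold change was -0.59 ± 0.151 (SE, adjusted p = 0.000591 by DESeq2). The call ended when libraries were scaled by totals without mitochondrial rRNA, at -0.16 (DESeq2, adjusted p = 0.411), a scaling that moved the median of all genes by 0.43.

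Efnb2 (ENSMUSG00000001300.16, chromosome 8 from 8617434 to 8661242) encodes ephrin-B2, a marker of arterial endothelium. Its normalised counts were 381, 358, 377 and 362 in the wildtype and 350.3, 311, 335 and 494 in the knockout. Knockout replicate 4 lay above the wildtype and the other 3 knockout libraries lay below it. The log2 fold change was 0.02 ± 0.163 (SE, adjusted p = 0.956 by DESeq2), and its sign turned under several scalings and fits.

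Per length, the change left the ephrin-B ligands with a different makeup. Efnb3 made up 53.6, 59.8, 51.4 and 55.4% of the summed TPM of the 3 ligands in the wildtype and 6.25, 4.56, 16 and 4.54% in the knockout. The sum itself was 13.8 ± 0.926 TPM in the wildtype and 4.99 ± 1.02 TPM in the knockout (SD, n = 4 each), and 24.3 ± 1.55 and 11.8 ± 2.46 TPM when TPM were rescaled over nuclear records. Within each library the log2 ratio of Efnb1 to Efnb2, which no scaling of the library changes, was 0.37 to 0.46 in the wildtype and -0.43 to 0.06 in the knockout. The 2 genes thus differed in their change by -0.60 in log2 units (two-sided exact permutation test, p = 0.0286, adjusted p = 0.0286 over 2 such ratios), which is the smallest p that 4 against 4 libraries allow. This comparison was added after the values were seen.

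**Figure D1:**
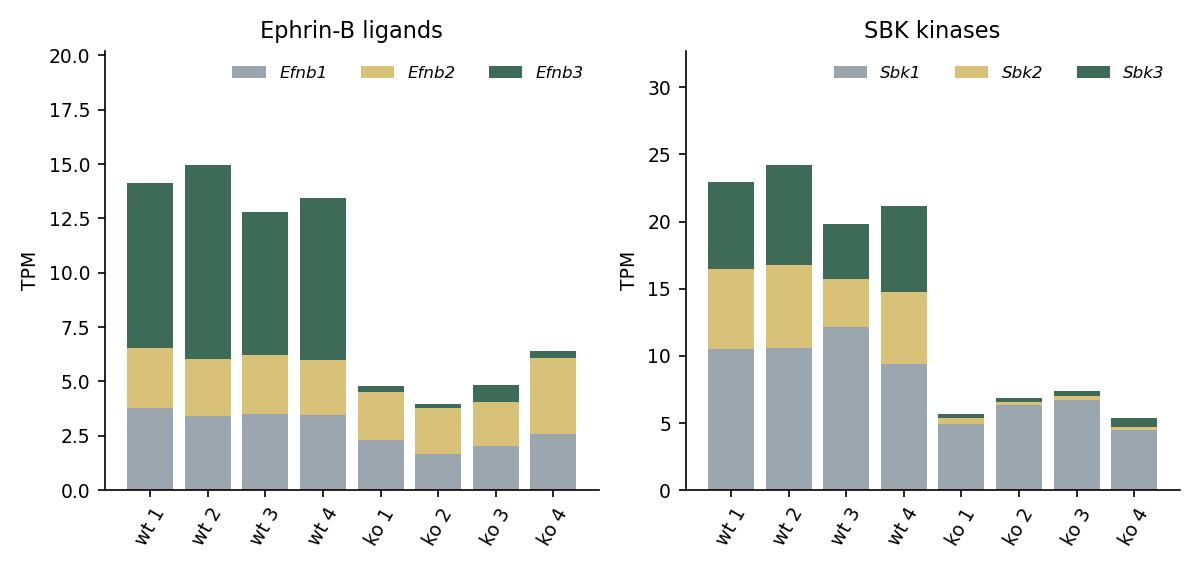
TPM of the ephrin-B ligands (left) and of the SBK kinases (right) in each of the 4 wildtype (wt) and 4 knockout (ko) libraries, stacked by gene. The ephrin-B sum lay between 12.8 and 15.0 TPM in the wildtype and between 3.95 and 6.39 TPM in the knockout, and the SBK sum between 19.8 and 24.2 TPM and between 5.38 and 7.35 TPM.

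Of 6 receptors for ephrin-B, 3 fell, 0 rose and 3 were not called, where 15.5% of all genes tested were called lower and 33.7% in either direction, and their median log2 fold change was -0.54 against 0.01 over all genes tested. Epha4, the receptor that binds ligands of both ephrin classes, had normalised counts of 2242, 2274, 2158 and 2132 in the wildtype and 537, 399.6, 236 and 371 in the knockout, a change of -2.51 ± 0.203 on the log2 scale (SE, adjusted p = 5.17e-33 by DESeq2). The lowest library was knockout replicate 3, in which Efnb3 was highest.

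Ephb3 had counts of 206, 206, 185 and 166 in the wildtype and 102, 113, 69.3 and 98.0 in the knockout, a change of -0.99 ± 0.188 on the log2 scale (SE, adjusted p = 1.3e-06 by DESeq2). Ephb1 had counts of 39.9 to 85.4 and 19.8 to 34.9, with a change of -1.07 ± 0.345 on the log2 scale (SE, adjusted p = 0.00801 by DESeq2). The call of Ephb1 was lost without wildtype replicate 2 (-0.81, DESeq2, adjusted p = 0.0654) and with totals without mitochondrial rRNA (-0.64, DESeq2, adjusted p = 0.134). Ephb4, the receptor of veins and the partner of ephrin-B2, had counts of 1028 to 1175 in the wildtype and 908 to 1104 in the knockout and a log2 fold change of -0.08 (adjusted p = 0.628 by DESeq2). Ephb2 had a log2 fold change of 0.25 (adjusted p = 0.718 by DESeq2), and Ephb6, which lacks kinase activity, of 0.65 (DESeq2, adjusted p = 0.277).

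Of the 19 other ephrin and Eph genes, receptors of ephrin-B included, 17 had an adjusted p, of which 6 fell and 0 rose. Over all genes tested, 15.5% were called lower and 18.2% higher, 33.7% in all. With totals without mitochondrial rRNA, 3 fell (Epha4, Ephb3 and Epha6) and 3 rose, namely Ephb4 (0.34), Ephb6 (1.08) and Epha2 (0.82), all by DESeq2 at an adjusted p under 0.05, beside a shift of 0.43 in the median of all genes. In the ephrin-A ligands 1 of 5 fell, with a median of -0.16. It was Efna2, at counts of 8.84 to 24.4 in the wildtype and 1.88 to 7.82 in the knockout and a log2 fold change of -1.64 (adjusted p = 0.044 by DESeq2). That call was lost in 7 of the 8 fits that left out a library, with a highest adjusted p of 0.231 by DESeq2, without wildtype replicate 1. In the other Eph receptors 2 of 6 fell, with a median of -0.67. They were Epha7, at -0.72 (DESeq2, adjusted p = 0.0479), and Epha6, with counts of 1.77 to 7.78 in the wildtype and 0 in all 4 knockout libraries. Epha6 had no adjusted p from DESeq2 in 4 of the 8 fits that left out a library. The call of Epha7 was lost in 6 of the 8 such fits, with a highest adjusted p of 0.13 by DESeq2, without knockout replicate 1. With edgeR, which called 3 of the 19, Epha7 had an adjusted p of 0.0675, and Efna2 and Epha6 were not among the genes tested.

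Of 10 listed proteins that bind the ephrin-B tail inside the cell, 2 rose, 1 fell and 7 were not called, with a median of -0.04, a share of calls near the 33.7% over all genes. Grip1 and Grip2 are related scaffolds with several PDZ domains, and they moved in opposite directions. Grip1 had counts of 5.19, 11.8, 8.85 and 8.53 in the wildtype and 197.6, 83.7, 104 and 161 in the knockout, a change of 3.97 ± 0.396 on the log2 scale (SE, adjusted p = 7.51e-22 by DESeq2). Grip2 had counts of 775, 743, 421 and 487.5 in the wildtype and 317, 142, 152.5 and 190.0 in the knockout, a change of -1.60 ± 0.282 on the log2 scale (SE, adjusted p = 1.77e-07 by DESeq2). Sdcbp, the scaffold syntenin, rose from 1211 to 1444 counts in the wildtype to 2132 to 2563 in the knockout, and its log2 fold change was 0.87 (adjusted p = 1.09e-15 by DESeq2).

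**Figure D2:**
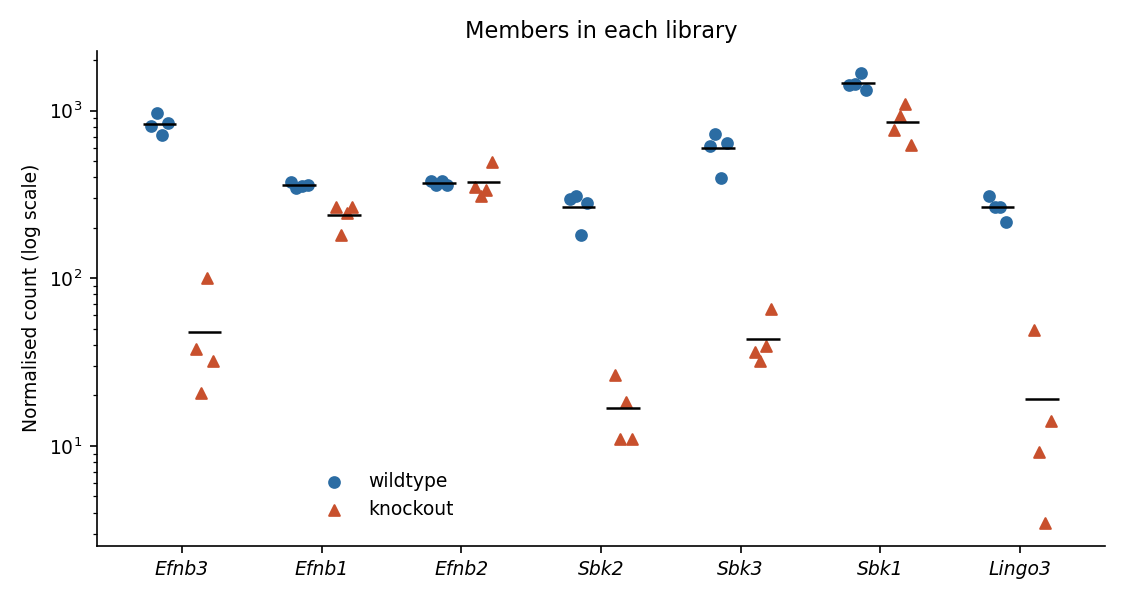
Normalised counts of the 7 members on a log axis, with 1 point per library (circles, wildtype; triangles, knockout) and a line at the mean of each group of 4. In Efnb3, Sbk2, Sbk3 and Lingo3 every knockout library lay below every wildtype library by a factor of 4.39 or more, while the groups of Efnb2 overlapped.

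Sbk2 and Sbk3, which lie next to each other, were both far lower in the knockout, while Sbk1 fell less. Sbk2 (ENSMUSG00000030433.15) is on the minus strand of chromosome 7, from 4940512 to 4964406. Its normalised counts were 298, 310.5, 181 and 279.6 in the wildtype and 26.5, 10.9, 18.4 and 11 in the knockout. The groups did not overlap, and the lowest wildtype library was replicate 3. The means were 267 ± 58.8 and 16.7 ± 7.42 (SD, n = 4 each), with a log2 fold change of -4.05 ± 0.314 (SE). The effective length that RSEM assigned to Sbk2 was 1605 to 1650 bases in the wildtype and 1064 to 1493 in the knockout, on 10 to 18 expected counts per knockout library, and the log2 fold change without the length offset was -4.47.

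Sbk3 (ENSMUSG00000085272.7) lies on the same strand from 4965260 to 4971168, and 853 bases separate it from Sbk2. Sbk3 is a member by family, and earlier results of these data were known when it was included. Its normalised counts were 616.5, 725, 395 and 641 in the wildtype and 36.3, 32.2, 39.5 and 65.4 in the knockout, with no overlap. The means were 594 ± 141 and 43.4 ± 15.0 (SD, n = 4 each), a ratio of 13.7. The log2 fold change was -3.77 ± 0.26 (SE, adjusted p = 2.01e-45 by DESeq2), and it lay between -4.05 and -3.65 when each library was left out in turn. Wildtype replicate 3 was the lowest wildtype library for Sbk3, as for Sbk2.

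Sbk1 (ENSMUSG00000042978.10), the family member known from brain, lies elsewhere on chromosome 7, from 126272619 to 126295016 on the plus strand. Its normalised counts were 1424, 1449, 1669 and 1331 in the wildtype and 771, 926, 1094 and 627 in the knockout, with no overlap. The log2 fold change was -0.78 ± 0.173 (SE, adjusted p = 4.51e-05 by DESeq2). In Sbk1, unlike in the other 2, replicate 3 was the highest library of the wildtype.

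Per length, Sbk1 was the main SBK transcript in both groups and nearly the only one in the knockout. It made up 43.8 to 61.5% of the summed TPM of the family in the wildtype and 83.8 to 92.6% in the knockout. Sbk2 made up 17.9 to 25.9% and 2.92 to 7.91%, and Sbk3 20.6 to 31% and 4.52 to 12.3%. Sbk2 had 0.815 to 0.921 TPM per TPM of Sbk3 in the wildtype, a narrow range that held in replicate 3, and 0.318 to 1.36 in the knockout, where both counts were small. The log2 ratio of Sbk3 to Sbk1 was -0.71, -0.50, -1.58 and -0.56 in the wildtype and -3.90, -4.36, -4.30 and -2.77 in the knockout. Sbk3 thus changed by a further -2.99 on the log2 scale relative to Sbk1 (exact permutation test, two-sided, p = 0.0286, adjusted p = 0.0286 over 2 ratios), a comparison that was also added after the values were seen.

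Among the 2 nearest protein-coding genes on each side of each member, 24 were no members, 22 had an adjusted p, and of these 4 fell and 1 rose, a share below the 33.7% of all genes, with a median log2 fold change of -0.07. Next to the Sbk2 and Sbk3 pair, Zfp579 had a log2 fold change of -0.37 (adjusted p = 0.389 by DESeq2), Fiz1 of 0.08 (DESeq2, adjusted p = 0.655), Nat14 of -1.01 (DESeq2, adjusted p = 0.054) and Ssc5d of -0.17 (DESeq2, adjusted p = 0.719). Ssc5d overlaps the end of Sbk2 on the opposite strand, at 57.6 to 92.0 counts in the wildtype and 32.2 to 80.0 in the knockout, and the authors counted with strand. The genes that fell were Dnah2 (-1.76) and Kdm6b (-0.70) beside Efnb3, Stard8 (-0.66) beside Efnb1 and Oaz1 (-0.45) beside Lingo3, and Gsg1l beside Sbk1 rose (0.98), all by DESeq2 with adjusted p of 1.32e-05 to 0.0213. Not called were Wrap53, Trp53, Yipf6, Pja1, Slc10a2, Shcbp1, Arglu1, Xpo6, Lat, Spns1, Jsrp1, Lsm7 and Sppl2b, and Tmem28 and Fam155a had no adjusted p. Within the span of Efnb2 lie 3 further gene records on its strand. Mean counts in the wildtype and the knockout were 147.5 and 129.2 for E230020D15Rik, 38.3 and 32.1 for Gm45074, and 129.3 and 78.6 for Gm45073. Only in Gm45074 did the groups overlap. Their exons lie in introns of Efnb2.

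Lingo3 was at a low level in the wildtype and close to the floor in the knockout. Lingo3 (ENSMUSG00000051067.8) is on the minus strand of chromosome 10, from 80832801 to 80844039, with its coding region of 1770 bases in 1 exon. Its normalised counts were 309, 265, 266.5 and 215.5 in the wildtype and 49.1, 9.24, 3.46 and 14.1 in the knockout. These rested on 268 to 307 expected counts per wildtype library and on 44, 8, 3 and 15 per knockout library, and 3 counts are the floor used here, so the level of knockout replicate 3 could not be told from 0. The means were 264 ± 38.3 and 19.0 ± 20.5 (SD, n = 4 each), so the knockout SD exceeded its mean, and replicate 1 was the highest of the 4. The log2 fold change was -3.80 ± 0.701 (SE), the widest among the members, and it was -4.84 without knockout replicate 1 and -3.45 without knockout replicate 3.

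Other LINGO genes were close to absent at this depth. Lingo1 had counts of 7.17 to 13.7 in the wildtype and 2.97 to 12.6 in the knockout and a log2 fold change of -0.52 (adjusted p = 0.549 by DESeq2). Lingo4 had 1.94 to 4.02 and 1.88 to 21.9 (DESeq2, adjusted p = 0.27), and its highest library was knockout replicate 3. Lingo2 had 0 counts in all 8 libraries. Coding identity of Lingo3 was 65.2% to Lingo1, 61.7% to Lingo2 and 58.4% to Lingo4.

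The Nogo receptor and its ligand moved in opposite directions. Of 8 genes of the receptor complex and its ligands, 7 had an adjusted p, of which 2 fell and 1 rose, with a median of 0.03, beside 33.7% of all genes called. Rtn4r encodes the Nogo receptor, and its normalised counts were 106, 145, 130.2 and 86.0 in the wildtype and 8.93, 16.2, 12.7 and 13.2 in the knockout. Its log2 fold change was -3.20 ± 0.32 (SE, adjusted p = 1.07e-21 by DESeq2). Rtn4 encodes Nogo, a reticulon that also shapes the endoplasmic reticulum, and its counts were 1048, 1124, 1393 and 1224 in the wildtype and 4472, 5104, 6761 and 5757 in the knockout. Its log2 fold change was 2.21 ± 0.152 (SE, adjusted p = 1.79e-45 by DESeq2). Rtn4rl1, a receptor of the same family, had a log2 fold change of -0.52 (adjusted p = 0.0244 by DESeq2), a call that leaving out single libraries ended, with a highest adjusted p of 0.135 without wildtype replicate 4. The co-receptors Ngfr (1.04, DESeq2, adjusted p = 0.0889) and Tnfrsf19 (0.03, DESeq2, adjusted p = 0.947) were not called. With totals without mitochondrial rRNA, Rtn4rl1 was at -0.09 (DESeq2, adjusted p = 0.748) and Ngfr was called (1.48, DESeq2, adjusted p = 0.0084).

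**Figure D3:**
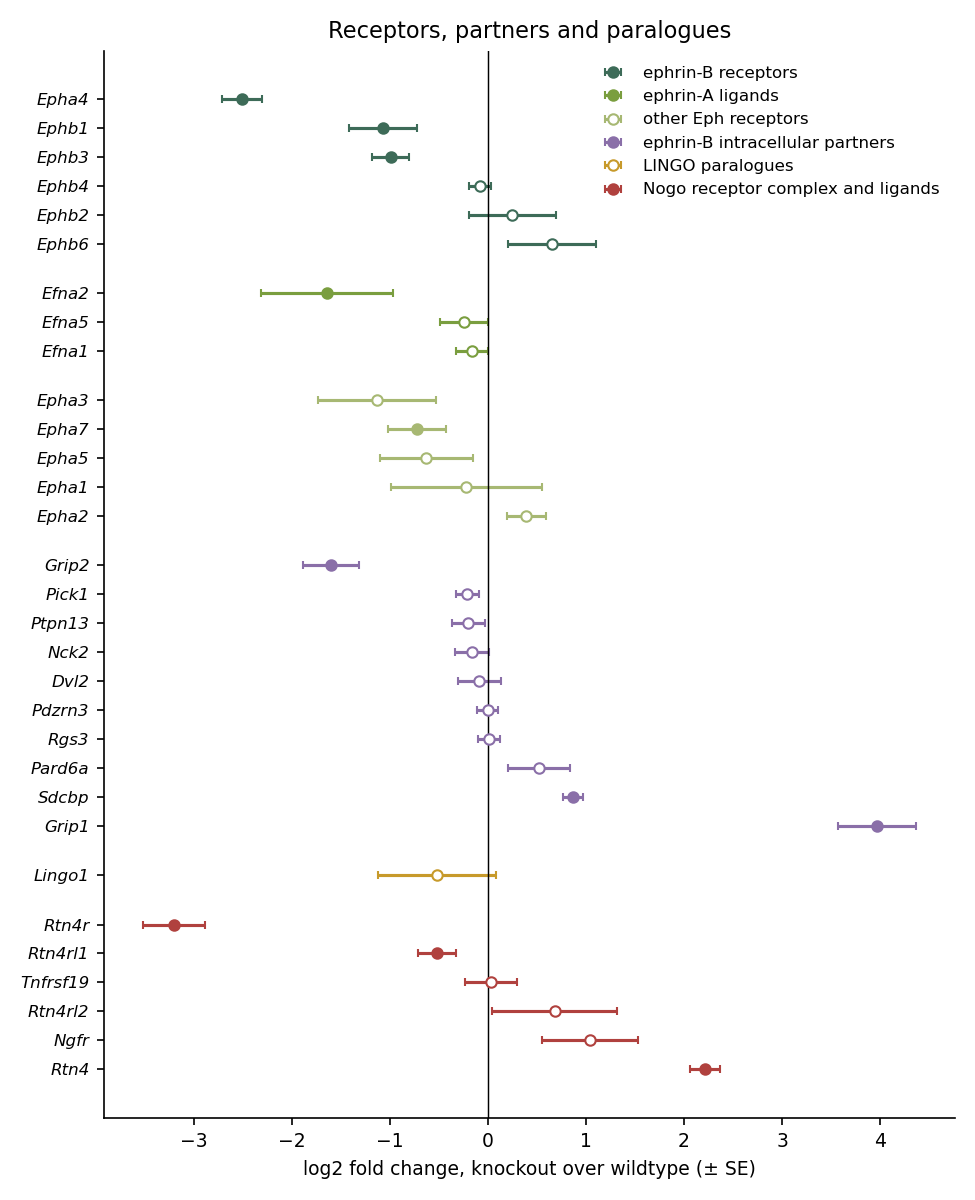
Log2 fold changes (knockout over wildtype) with standard errors from the DESeq2 fit over 8 libraries, for genes of the receptor, partner and paralogue lists whose mean exceeded 3 normalised counts in both groups. Filled circles passed an adjusted p of 0.05, among them Epha4 at -2.51, Rtn4r at -3.20, Rtn4 at 2.21 and Grip1 at 3.97.

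Genes were ranked by fold change among 4660 nuclear genes, all pseudogenes left out, whose mean reached 100 normalised counts and whose groups did not overlap, 2080 of them lower in the knockout. The members stood at places 2 (Efnb3), 4 (Sbk2), 5 (Lingo3) and 6 (Sbk3). Across all genes tested, 16.4% were lower in the knockout with no overlap between groups, and 6 of the 7 members were, a count that the choice of 3 of them fixed in part. With pseudogenes kept, a ranking added after the values were seen, Gm10925, Gm29216, Gm28437 and Gm13340 also came before Efnb3, and the members stood at places 6, 8, 9 and 10. These pseudogenes are annotated as unprocessed, and whether they are nuclear copies of the mitochondrial genome was not checked. Without them, the gene above Efnb3 was Ces1d, a carboxylesterase (-4.97, standard error 0.668), and Kcnv2, a modifier subunit of potassium channels, lay between Efnb3 and Sbk2 (-4.08, standard error 0.241). Sbk1 stood at place 682 and Efnb1 at place 1085. These places use the contrast that chose Efnb3, Sbk2 and Lingo3 and are a description of them.

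In order of wildtype TPM the members stood as Sbk1 (10.7 ± 1.13), Efnb3 (7.64 ± 0.977), Sbk3 (6.11 ± 1.45), Sbk2 (5.23 ± 1.17), Efnb1 (3.55 ± 0.158), Efnb2 (2.65 ± 0.113) and Lingo3 (2.23 ± 0.36, SD, n = 4 each). Libraries of neighbours in this order overlapped except between Sbk1 and Efnb3 and between Efnb1 and Efnb2. In the knockout the order was Sbk1 (5.62 ± 1.07), Efnb2 (2.46 ± 0.698), Efnb1 (2.15 ± 0.397), Sbk3 (0.41 ± 0.167), Efnb3 (0.385 ± 0.262), Sbk2 (0.29 ± 0.116) and Lingo3 (0.143 ± 0.151, SD, n = 4 each). The highest library of Efnb3, at 0.77 TPM, lay below the lowest library of Efnb1, at 1.67 TPM.

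The genes whose pattern was nearest to each member were found by the root mean square difference, over the 8 libraries, of log2(normalised count + 1) less the wildtype mean, among 10434 genes with a mean of at least 100. This measure depends mostly on the size of the fall, for which Efnb3, Sbk2 and Lingo3 were chosen. The nearest genes are therefore mainly those with a fall of like size, and they are given as a description. Nearest to Efnb3 were Sbk2 (0.581), the pseudogene Gm13340 (0.705) and Clcn1, the chloride channel of muscle (0.712). Nearest to Sbk2 were Sbk3 (0.546), Pla2g5, a secreted phospholipase (0.553), and Gm13340 (0.556). With a minimum mean of 50 in place of 100, only Sbk3 stayed among the 3 nearest to Sbk2. Nearest to Lingo3 were Itgb6, an integrin subunit (0.368), Myl7, the atrial myosin light chain (0.495), and Ky, a muscle protein named for kyphoscoliosis (0.499).

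Efnb3 was highest in knockout replicate 3 and lowest in replicate 2, whereas Lingo3 was highest in replicate 1 and lowest in replicate 3, where it had 3 expected counts. Itgb6 had counts of 294, 46.0, 15.5 and 39.2 in the knockout, Myl7 had 639, 337, 70.1 and 319, and Ky had 104, 21.4, 4.41 and 12.2, an order that their choice by likeness to Lingo3 over these libraries fixes in part. Efnb3 and Lingo3 were 1.28 apart on this measure, against 0.581 between Efnb3 and Sbk2 and 0.859 between Sbk2 and Lingo3. All of them were chosen for their fall in these libraries, which fixes these distances in part.

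**Figure D4:**
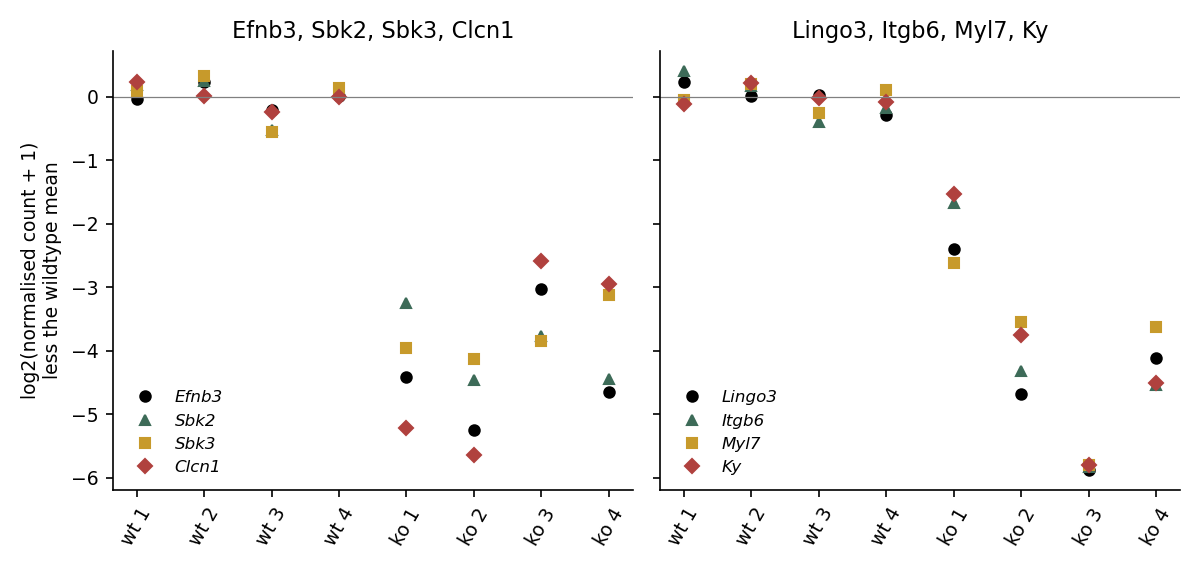
Log2(normalised count + 1) less the wildtype mean in each of the 4 wildtype (wt) and 4 knockout (ko) libraries, for Efnb3 with Sbk2, Sbk3 and Clcn1 (left) and for Lingo3 with Itgb6, Myl7 and Ky (right). In knockout replicate 3, Efnb3 stood at -3.04 and Lingo3 at -5.88, and in replicate 1 at -4.41 and -2.39.

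Markers of the cell types that a heart holds were read beside the members. Over all genes tested, 15.5% were called lower and 18.2% higher, 33.7% in all. Of 8 atrial cardiomyocyte markers, 4 fell and 2 rose (median -1.24), and their summed TPM was 1050 to 1200 in the wildtype and 1360 to 2160 in the knockout, a sum led by Nppa (log2 fold change 1.73), which rose. Kcnj3 (-2.92), Myl7 (-3.54) and Sln (-2.84) fell, while Myl4 (-0.96, DESeq2, adjusted p = 0.179) and Bmp10 (-0.85, DESeq2, adjusted p = 0.264) were not called, and of the 8, Myl4, Myl7, Sln, Nppa and Kcnj3 were lowest in knockout replicate 3, as Lingo3 was, Kcnj5 and Pam were highest there, and Bmp10 was lowest in replicate 1. The part of atrial tissue in the values of Sbk2, Sbk3 and Lingo3 was not tested. Of 11 neuron markers, 7 had an adjusted p, of which 2 rose (Uchl1, 3.69, and Tubb3, 3.11) and 1 fell (Dbh, -3.35). The summed TPM was 4.05 to 5.25 in the wildtype and 18 to 60.9 in the knockout. Th and Snap25 had at most 4.94 normalised counts and Chat 0 in every library. Levels of the other neuron markers, and the share of each marker in the sum, are not printed here. The part of neurons in the values of Efnb3 and Lingo3 was not tested.

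In the remaining lists every marker had counts. Of 10 cardiomyocyte markers, 7 fell, led by Atp2a2 (-1.63), Pln (-1.46) and Ryr2 (-1.40), and 1 rose, with a median of -0.96 and a summed TPM of 13600 to 14800 in the wildtype and 6980 to 7760 in the knockout. Of 4 ventricular markers, 3 fell (Irx4, -0.95, Myl2, -0.76, and Myl3, -0.58), at 6630 to 7610 and 3690 to 4660 TPM. Of 8 endothelial markers, 0 were called by DESeq2 at an adjusted p under 0.05, at 170 to 200 and 108 to 206 TPM. Of 5 arterial markers, at 11.2 to 12.5 and 11.6 to 14.9 TPM, 2 rose (Sox17, 1.19, and Gja4, 0.96) and 1 fell (Gja5, -0.76), beside which Efnb2 had 0.02. Of 7 fibroblast markers, 3 rose (Col3a1, 1.62, Col1a1, 1.48, and Col1a2, 1.29), at 194 to 210 and 166 to 455 TPM. Of 6 macrophage markers, 5 rose, led by Cd68 (1.42), Cd14 (1.11) and Mrc1 (0.75), at 28.9 to 39.8 and 29.9 to 77.3 TPM. Of 6 smooth muscle and pericyte markers, 2 fell (Acta2 and Myh11, both -1.16), at 150 to 169 and 80.7 to 117 TPM. Rescaled over nuclear records, the sums were 49.5 to 68.7 and 71.4 to 179 TPM for macrophage, 341 to 373 and 397 to 1060 for fibroblast and 20.2 to 21.6 and 27.7 to 35.2 for arterial markers, which no longer overlapped, and 266 to 293 and 193 to 278 for smooth muscle and pericyte markers, which then overlapped. The part of these cell types in the members' values was not tested. All of these calls are from the DESeq2 fit with an adjusted p under 0.05. That fit called 15.5% of all genes tested lower and 18.2% higher, 33.7% in all.

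Other fits left the 4 large decreases large. Over 15 alternatives the log2 fold change ran from -4.78 to -3.74 for Efnb3, from -4.47 to -3.63 for Sbk2, from -4.06 to -3.34 for Sbk3 and from -4.84 to -3.36 for Lingo3. Scaling by total counts moved the median of all genes to -0.30, and scaling by totals without mitochondrial rRNA moved it to 0.43, and the members moved with it. Under the latter, Sbk1 was at -0.37 (DESeq2, adjusted p = 0.0409) and Efnb2 at 0.45 (DESeq2, adjusted p = 0.028), a value close to the shift of all genes.

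**Figure D5:**
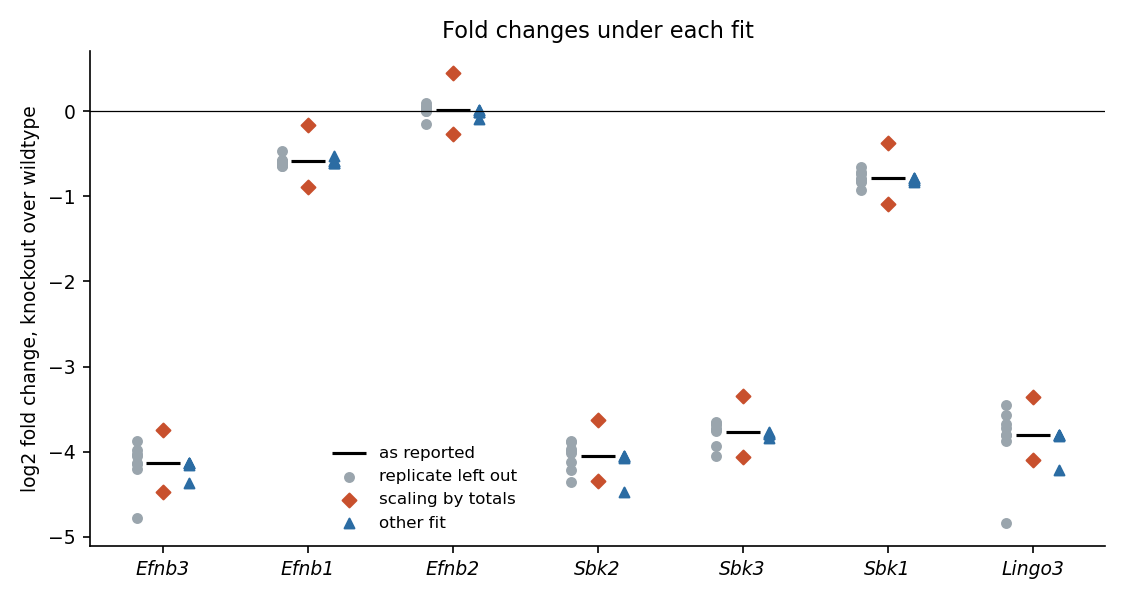
Log2 fold change (knockout over wildtype) of each member as reported (line), with each library left out (grey circles), under the 2 scalings by total counts (diamonds) and under the other fits (triangles). Efnb3, Sbk2, Sbk3 and Lingo3 stayed at -3.34 or lower in all of them, while the values of Efnb2 lay on both sides of 0.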

How the data were processed

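RNA from 8 mouse hearts, grouped by the sample titles, was sequenced by the authors after depletion of cytoplasmic rRNA with random primers. They made the deposited expected counts, TPM values and other values (effective lengths in bases) with RSEM 1.2.31 and Bowtie2, counting by strand, against GENCODE M13 transcripts and mitochondrial references with 50 added adenines. Their table of fold changes and adjusted p-values and a table of normalised counts, whose 8 columns match no sample label, were not used.

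After rounding of the expected counts to integers, DESeq2 1.42.0 was fitted in R 4.3.3 with genotype as the only term, effective lengths as an offset (0 set to 1), and Benjamini-Hochberg adjustment at 0.05 over all genes. Fold changes were not shrunk. A pseudocount of 1 was used for the likeness measure. Symbols and coordinates came from GENCODE M21 (50339 of 50563 Ensembl identifiers matched). Upstream sequences came from RefSeq (GRCm38.p6). edgeR 4.0.16 and other scalings, filters and left-out libraries were alternatives. The fit was tested on simulated data. No replicate pair agreed within sampling noise. Floors cover counting error only. The labels do not say that hearts came from separate litters or days, so p-values measure the spread between these samples, which may be technical.

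The members and gene lists were chosen with earlier results of these data known. Genes named are the members, all ephrin-B receptors and LINGO paralogues, the 3 largest called changes of each other list (ephrin-A ligands, other Eph receptors, intracellular partners, Nogo complex, and markers of cardiomyocytes, atrial, ventricular, endothelial, arterial, fibroblast, smooth muscle, neuron and macrophage cells), the nearest neighbours on the chromosome, the 3 genes nearest in pattern and those next in rank. The ranking rule named only nuclear copies of the mitochondrial genome to be left out, and all pseudogenes were left out here. Other genes in these lists are named with values where they bear on a member. A further marker list is not reported here.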

Additional observations from a re-analysis of the deposited data

Results flagged for a closer look

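Of 78 groups of 4 values checked for a library far from the others, 2 were flagged, and chance flags about 1 in 20 groups. Neither was a count of a member. Ephb4, a receptor of ephrin-B2, stood at 1175 normalised counts in wildtype replicate 3, while the other 3 wildtype libraries lay between 1028 and 1034. The summed TPM of the ventricular cardiomyocyte markers stood at 4660 in knockout replicate 1, while the other 3 knockout libraries lay between 3689 and 3787. Knockout replicate 1 was also the library with the highest Lingo3 and Sbk2, and what the values share was not tested.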

How the results depend on the processing

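Of 135 values recomputed for the log2 fold changes of the members and for the 2 counts of called partner genes, 124 stayed the same. That meant the same direction and side of the threshold, or, for Efnb3, Sbk2 and Lingo3, a value within the replicate spread. For the counts it meant within 1.5 times the reported count, which does not say that the same genes were called. With totals without mitochondrial rRNA, 3 of the 6 ephrin and Eph genes called were higher in the knockout against 0 as reported. Of the other recomputed values (TPM ratios of the members, nearest genes, motif shares and places), 12 stayed the same, 23 moved and 1 reversed. Over nuclear records the log2 ratio of mean TPM was -0.27 for Efnb1, against -0.61 over all records, and -0.48 for Sbk1, against -0.87. When libraries were scaled by totals without mitochondrial rRNA, Efnb1 was no longer called (-0.16, DESeq2, adjusted p = 0.411) and Efnb2 became called (0.45, DESeq2, adjusted p = 0.028), where the median of all genes rose to 0.43. The small value of Efnb2 turned in sign with edgeR (-0.0038), without the length offset (-0.0941), with total counts (-0.27) and without knockout replicate 4 (-0.153), and the log2 ratio of its mean TPM was 0.29 over nuclear records against -0.09 over all records. edgeR called 3 of the 19 other ephrin and Eph genes (Epha4, Ephb1 and Ephb3) against 6 with DESeq2, and for Epha7 it gave an adjusted p of 0.0675, while Efna2 and Epha6 were not among the genes it tested. The count of those called ran from 2 (without wildtype replicate 2) to 5 when each library was left out, with 3 without wildtype replicate 1 or 4, and that of the LINGO and Nogo complex from 2 to 3. Leaving out each library gave -0.645 to -0.469 for Efnb1, -0.153 to 0.0975 for Efnb2, -4.05 to -3.65 for Sbk3 and -0.926 to -0.659 for Sbk1. Calls over all genes were split 53.9% higher and 46.1% lower, 24.6% and 75.4% with total counts, and 87.7% and 12.3% with totals without mitochondrial rRNA.

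Same-numbered libraries did not deviate together over 10447 genes (r = -0.029, -0.052, -0.009 and 0.086). These values were not set against those of libraries with unlike numbers. They do not tell whether a number marks a shared litter or day. With the replicate block, 5525 genes were called against 6728, Efnb2 stood at -0.0078, Efnb3 at -4.37, Sbk2 at -4.06, Sbk3 at -3.79, Lingo3 at -4.22, Sbk1 at -0.81 and Efnb1 at -0.60, and 4 of the other ephrin and Eph genes and 2 of the LINGO and Nogo complex genes were called. Depth limits Lingo3 and Sbk2 most, which had 3 to 44 and 10 to 18 expected counts in the knockout libraries, and with a pseudocount of 0.1 to 1 the log2 ratio of mean TPM of Lingo3 ran from -3.26 to -1.50.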

Other observations

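Other families of axon guidance proteins were read after the values of the members had been seen, each as the whole family by symbol, with calls from the same DESeq2 fit, in which 33.7% of all genes were called. Apart from the plexins and neuropilins (6 of 11) and the semaphorins (8 of 20), the shares of called genes lay below that, and none of the shares was tested. Of 11 plexins and neuropilins, the receptors of semaphorins, 5 fell and 1 rose, with a median log2 fold change of -0.31. The class B plexins split, as Plxnb1 fell (-1.96, standard error 0.146, DESeq2, adjusted p = 9.88e-39) from 1062 to 1147 normalised counts in the wildtype to 233 to 343 in the knockout, and Plxnb3 fell (-1.89, DESeq2, adjusted p = 1.45e-06). Plxnb2 rose (0.91, standard error 0.0917, DESeq2, adjusted p = 1.72e-21) from 2065 to 2406 counts to 3885 to 4517. The neuropilins Nrp1 (-0.71, DESeq2, adjusted p = 0.00104) and Nrp2 (-0.64, DESeq2, adjusted p = 0.0339) fell.

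Of 20 semaphorins, 4 fell and 4 rose (median -0.12), with Sema6c (-2.05) and Sema3a (-1.41) the lowest of those called and Sema6b (0.78) and Sema3f (0.73) the highest. Of the netrins and their receptors, 8 had an adjusted p, of which Neo1 fell (-0.60) and Unc5b rose (0.73), and of 7 slits and robos Robo4 fell (-0.40) and Slit1 rose (1.76), from 1.38 to 4.73 counts in the wildtype to 4.74 to 23.9 in the knockout. Slit1 had 2 to 9 expected counts per wildtype library and 6 to 7 per knockout library, and its effective length was 4881 to 5510 bases and 1213 to 5258 bases, so the expected counts of the groups overlapped and only the length-scaled ones did not. Of 24 neuronal leucine-rich repeat membrane proteins with an adjusted p, relatives of Lingo3 in architecture, 4 fell (Slitrk6, -1.67, Amigo3, -1.06, Lrfn4, -0.84, and Amigo1, -0.39) and 0 rose, with a median of -0.37.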
